A study of Mus musculus with 4 samples.

Results

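The S100 proteins are small calcium-binding proteins, and 10 of their genes were followed in dermal cells of mouse skin: S100a1, S100a3, S100a4, S100a6, S100a8, S100a9, S100a10, S100a11, S100a13 and S100a14. All their probe sets were taken by gene symbol, whatever their signal. On the array a transcript is read by a probe set, that is by several short probes whose signals are combined. Of the 10 genes, 9 had at least 1 probe set that lists their symbol alone, with 12 probe sets in all, out of 18193 genes and 45101 probe sets on the array. S100a11 was represented by probe set 1460351_at alone, which also lists Gm12854 and S100a11-ps, so that no value is given for it.

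Dermal cells of female C57BL/6 mice were compared under 4 conditions, with 1 Affymetrix array each and no replicates, so that no value below has an error or a test. The virgin array held abdominal skin of non-pregnant mice, the dorsal array back skin of pregnant mice and the abdominal array belly skin of pregnant mice, all given the solvent dimethyl sulphoxide (DMSO) by intradermal injection. The PP2 array held belly skin of pregnant mice injected with PP2, an inhibitor of Src kinases, in place of DMSO alone. The mice were injected 2 times a day for 4 days, from 12 days post-coitus (dpc) in the pregnant groups. All 4 conditions therefore share the strain, the sex and the injections. The sample titles give 15 dpc and the sample descriptions 16 dpc for the pregnant mice. Their age is 10 weeks in the labels and 8 to 12 weeks in the design text. The cells were freed from scraped skin by collagenases, hyaluronidase and DNase, and the sources used here do not say whether an array held 1 mouse or several. The 3 main comparisons all set the abdominal array against another array, so they share that array and are not independent of each other.

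Most S100 proteins pair up and change shape when calcium binds to 2 looped motifs called EF-hands, which uncovers a face that grips other proteins. Which partner they meet depends on the cell that makes them. S100a3 is a protein of the hair cuticle, S100a8 and S100a9 form the calprotectin of neutrophils, S100a14 belongs to epithelia, and S100a4, S100a6 and S100a10 are made by fibroblasts and other stromal cells among others. Skin that is in a phase of hair growth, is inflamed or holds more epidermis can therefore differ in different members of the family.

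The values are MAS5 signals, linear intensities in arbitrary units that the authors scaled to 1 level per array, with a detection call of present, marginal or absent. Between 58.4% and 59.7% of probe sets were called present on an array, and present calls reached down to a signal of 10.7, 9.36, 6.57 and 3.96 on the virgin, dorsal, abdominal and PP2 arrays. For Gapdh, the control probes at the 3′ end gave 2.51, 2.97, 1.41 and 5.84 times the signal of those at the 5′ end in the same order, a ratio that is higher where RNA is more degraded or less fully copied. For Actb the ratios were 2.64, 4.14, 2.03 and 2.70, so that the dorsal array was highest by Actb and the PP2 array by Gapdh. The cells carried the marks of dermis, with 15 of 15 fibroblast markers called present on all 4 arrays. They also carried those of epidermis: between 16 and 17 of 18 measured keratinocyte markers were called present on each array, Krt5 and Krt14 on all 4 among them. In such mixed samples, fewer cells of a type and less RNA per cell cannot be told apart. Signals are compared between arrays for the same probe set and never between probe sets, whose probes bind with different strength.

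All 10 members lie on chromosome 3, which carries 15 S100 genes in the RefSeq annotation. In order along the chromosome they are S100a1, S100a13, S100a14, S100a16, S100a3, S100a2, S100a4, S100a5, S100a6, S100a7a, S100a8, S100a9, S100a7l2, S100a11 and S100a10, with 1 other protein-coding gene before S100a7l2 and 54 before S100a11. S100a3 and S100a4 are therefore near neighbours, as are S100a8 and S100a9. The windows from 250 bases before to 50 after the transcript start are shown for these 4 genes, since S100a3 and S100a9 were each called present on 1 array and their neighbours S100a4 and S100a8 on all 4. The windows are RefSeq sequence of assembly GRCm38.p6, at chr3:90599964-90600263 on the plus strand, chr3:90603520-90603819 on the plus strand, chr3:90668821-90669120 on the plus strand and chr3:90695672-90695971 on the minus strand. They read 5′ to 3′ on the gene's strand. Capitals mark each match to TATAA, the core of a TATA box, on either strand.
S100a3: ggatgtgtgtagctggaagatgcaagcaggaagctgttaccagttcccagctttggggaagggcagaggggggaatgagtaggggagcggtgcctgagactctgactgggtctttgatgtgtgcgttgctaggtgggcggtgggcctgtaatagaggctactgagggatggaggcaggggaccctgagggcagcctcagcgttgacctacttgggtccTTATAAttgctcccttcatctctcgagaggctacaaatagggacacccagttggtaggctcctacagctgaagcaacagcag
S100a4: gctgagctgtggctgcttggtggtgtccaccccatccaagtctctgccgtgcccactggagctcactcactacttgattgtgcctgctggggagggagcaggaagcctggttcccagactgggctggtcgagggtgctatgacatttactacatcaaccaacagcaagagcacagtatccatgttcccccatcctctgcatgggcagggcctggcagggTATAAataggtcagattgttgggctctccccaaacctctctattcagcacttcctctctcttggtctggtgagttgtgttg
S100a8: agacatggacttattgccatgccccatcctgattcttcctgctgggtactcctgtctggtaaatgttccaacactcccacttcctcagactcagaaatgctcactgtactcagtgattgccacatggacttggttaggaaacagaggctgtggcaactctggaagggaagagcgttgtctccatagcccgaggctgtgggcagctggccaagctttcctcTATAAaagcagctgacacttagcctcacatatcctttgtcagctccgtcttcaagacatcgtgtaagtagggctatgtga
S100a9: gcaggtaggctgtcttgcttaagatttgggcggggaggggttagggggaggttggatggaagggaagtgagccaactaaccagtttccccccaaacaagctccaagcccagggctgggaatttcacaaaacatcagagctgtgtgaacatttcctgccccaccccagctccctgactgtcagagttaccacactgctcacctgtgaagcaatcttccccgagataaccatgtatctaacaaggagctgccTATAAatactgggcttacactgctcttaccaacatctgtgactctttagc

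In these windows TATAA begins 31 bases before the start of S100a3 and of S100a4 and 30 bases before that of S100a8. In the S100a3 window the capitals hold 1 more base because the reverse-strand match, at -32, overlaps the forward one. In the S100a9 window the only match begins at position 1, the annotated start itself. RefSeq gave 11 windows for 8 of the 10 members, 4 of them for S100a3, of which the one nearest to S100a4 is shown. S100a10 and S100a14 had none. TATAA on the forward strand with its first base at -36 to -24 occurred in 3 of the 11 windows, against 3.09% of all 32851 windows of this length. On either strand and at any position it occurred in 5 of 11, against 24.9% of all windows. TATAA and the range of -36 to -24 were chosen after the sequences were seen, so these shares are a description and no test. The windows of S100a1 and S100a13 share 204 bases and point in opposite directions. GGGCGG, the core of an Sp1 site, was found in 3 member windows and in 35.7% of all windows, on both strands, and TGANTCA, the core of an AP-1 site, in 1 member window and in 7.81% of all. Neither of them overlapped a TATAA match. These are matches of letters and not measured binding sites.

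**Figure D1:**
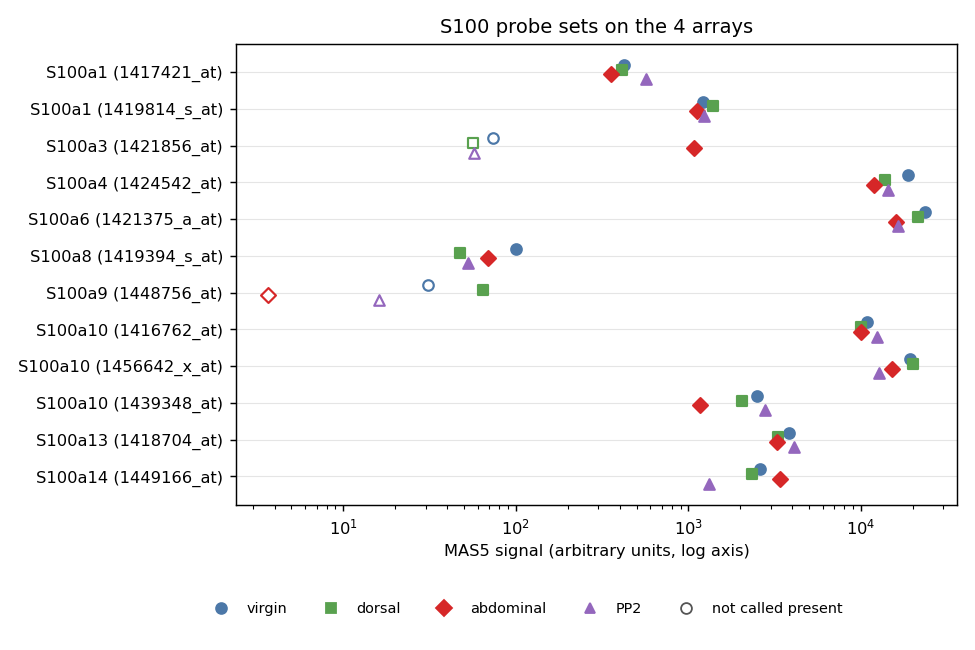
MAS5 signal (arbitrary units, log axis) of the 12 S100 probe sets on the virgin, dorsal, abdominal and PP2 arrays, 1 array each, with open symbols where the call was not present. S100a3 stands at 1083 on the abdominal array and between 56.8 and 73.3 on the others, while the 4 signals of S100a1, S100a13, S100a6 and S100a4 lie close together.

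S100a3, the protein of the hair cuticle that the enzyme Padi3 modifies, was called present on the abdominal array alone. Its signal was 73.3 in virgin, 56.8 in dorsal, 1083 in abdominal and 57.1 in PP2 skin. The 3 low signals were called absent and lie within 1.29-fold of each other, so they give no order. The abdominal signal exceeded them by at least 14.8-fold in virgin, 19.1-fold in dorsal and 19.0-fold in PP2 skin, which are lower bounds because the dim signals may be background. With 50 added to every signal these folds were 9.19, 10.6 and 10.6.

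Most structural genes of the hair shaft were highest on the same array as S100a3. Of 20 measured markers of the hair shaft and its cuticle, 18 were called present on the abdominal array, against 5 on the virgin, 8 on the dorsal and 9 on the PP2 array. Their summed signal was 2552, 3960, 32545 and 3813 on the virgin, dorsal, abdominal and PP2 arrays. The median log2 ratio of the 18 markers, abdominal array over the other, was 4.55 against virgin, 3.80 against dorsal and 4.43 against PP2 skin. The same median over all genes was 0.02, 0.04 and 0.00. Markers of the inner root sheath, the layer that moulds the shaft, showed medians of 3.86, 3.85 and 2.28 over 9 of 9 genes. Over 2-fold higher on the abdominal array were 15, 14 and 15 of the 18 shaft markers, and 8, 7 and 7 of the 9 root sheath markers. The shares of all genes, by any probe set, were 5.69%, 8.54% and 12.6%. A transcription factor on each list went the other way: Lef1 was 1099.8, 1389, 556 and 1558 and Trps1 4249, 3275, 909 and 2021 on the virgin, dorsal, abdominal and PP2 arrays. The part of hair growth in the S100a3 signal was not tested.

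The gene most like S100a3 over the 4 arrays was Krt31, a keratin of the hair cortex. Its signals of 53.4, 90.6, 1244 and 76.4 were absent, absent, present and absent in the same order. The root mean square difference of their centred log2 signals was 0.42, over 3485 candidate genes that vary at least 2-fold. Adh6b and Gm11567 followed at 0.64 each. This likeness describes 4 arrays.

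Padi3, the peptidylarginine deiminase that converts arginines of S100a3, showed the same set of calls. Its signal was 24.5, 3.48, 232 and 50.7, called present on the abdominal array alone. The abdominal signal exceeded that of virgin skin by at least 9.46-fold, of dorsal skin by 24.8-fold and of PP2 skin by 4.57-fold. Tchh, a larger relative with an S100 domain at its front end that fills the inner root sheath, was called present on all 4 arrays, at 129, 375, 3134 and 540.4. The abdominal signal exceeded the others by 24.2-fold, 8.36-fold and 5.80-fold.

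**Figure D2:**
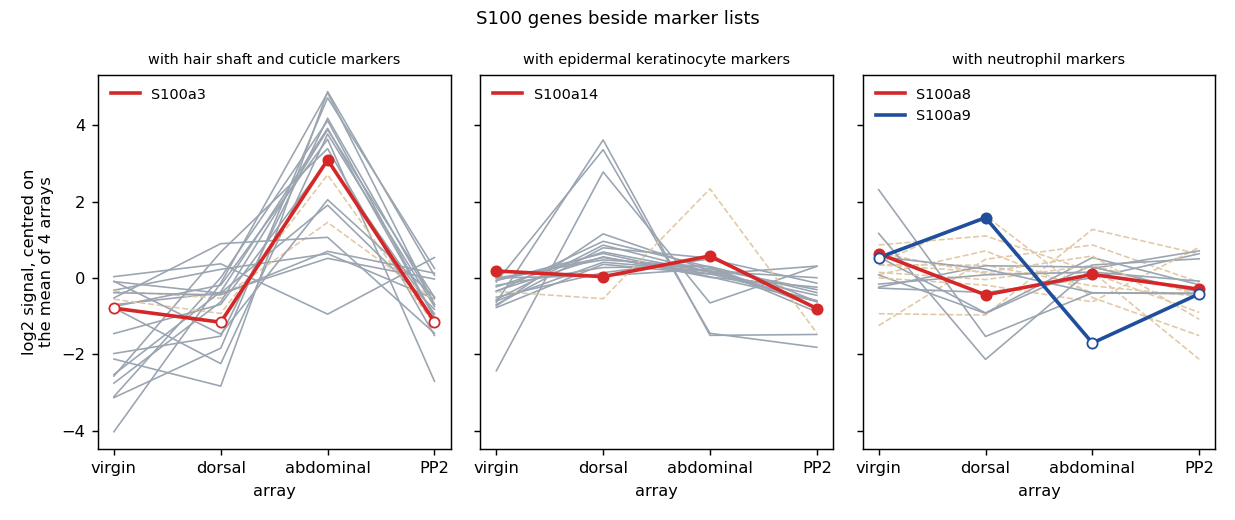
Log2 MAS5 signal of each gene, raised to the lowest present signal of the array and given minus its mean over the 4 arrays, for S100a3 beside hair shaft markers, S100a14 beside epidermal keratinocyte markers, and S100a8 and S100a9 beside neutrophil markers; thin solid lines are markers called present on some array and paler dashed lines markers called present on none, and open symbols mark member signals not called present. S100a3 and most hair markers peak on the abdominal array, where 18 of 20 were called present, whereas S100a9 is highest on the dorsal array.

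S100a8 and S100a9, the partners in calprotectin, differed in their calls. S100a8 had signals of 100.2, 47.4, 68.7 and 52.5 on the virgin, dorsal, abdominal and PP2 arrays and was called present on all 4. It was highest in virgin skin, 1.46-fold above the abdominal array and 2.12-fold above the dorsal array. The abdominal signal was 1.45-fold above the dorsal and 1.31-fold above the PP2 signal. S100a9 had signals of 31.0, 64.1, 3.68 and 16.1 and was called present on the dorsal array alone. There it was at least 9.74-fold above the abdominal array, at least 3.99-fold above the PP2 array and at least 2.07-fold above the virgin array. Its signals on the other arrays were called absent and give no order. With 50 added to every signal, which damps low values, the dorsal S100a9 signal was 2.12-fold above the abdominal one. For S100a8 the same offset left virgin 1.265-fold above abdominal skin, and abdominal 1.22-fold above dorsal and 1.16-fold above PP2 skin. The array with the lowest S100a8 signal was thus the only one on which S100a9 was called present. The probe set of S100a8, 1419394_s_at, carries a suffix given to probes that can match more than 1 transcript.

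Defining neutrophil genes were at or near the floor of detection. Of 18 measured neutrophil markers, 10 were called absent on all 4 arrays: Elane, Camp, Ltf, Ngp, Cxcr2, Csf3r, Mmp8, Mmp9, Clec4e and Stfa2l1. They include the granule proteins Elane, Ltf and Camp and the chemokine receptor Cxcr2. Lcn2 and Il1r2, which keratinocytes and other cells also express, were the 2 markers called present on all 4. Chil3, Fpr2 and Clec4d were called present on the virgin array alone, where S100a8 was highest. Chil3 had signals of 135, 4.11, 20.7 and 20.5 on the virgin, dorsal, abdominal and PP2 arrays. Trem1 was called present on the dorsal array alone, Trem3 on the PP2 array alone, and Mpo on both of these. Between 2 and 5 markers were called present on an array, and the summed signal was 3886, 3044, 2556 and 2442. Il1r2 alone supplied 2809, 2236, 1455 and 1427 of these sums. The signals of S100a8 and S100a9 were also low: the median of all signals called present on an array was between 372 and 423.

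Genes that draw neutrophils had their highest summed signal after PP2, at 5289, 4316, 3262 and 11256 on the 4 arrays in the same order. Il6 alone supplied 3127, 2897, 1978 and 8093 of these sums. Of 5 such cytokine and chemokine genes called present on the abdominal or the PP2 array, 4 were over 2-fold higher after PP2. The share of all genes, counted by any probe set, was 5.12%. S100a9 was called absent on the PP2 array. Il6 was 4.09-fold and Cxcl1 2.68-fold higher there, and Csf3, which drives neutrophil formation, at least 2.84-fold. Csf3 lay near the floor, at 55.7 after PP2 and 19.6 on the abdominal array, and its virgin signal of 57.7 was called absent. In virgin and dorsal skin 0 and 1 of the tested genes of this list were over 2-fold above the abdominal array, beside 6.34% and 8.81% of all genes. The 1 was Il17a, at least 4.18-fold higher in dorsal skin.

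The genes nearest to S100a8 over the 4 arrays were Exoc3l, Myct1 and Bcl6b, with root mean square log2 differences of 0.012, 0.051 and 0.052 over 3485 candidates. Nearest to S100a9 were Scgb1a1, 4930554G24Rik and Mymx, at 0.13, 0.18 and 0.22. None of these 6 is on the neutrophil list, but 10 of its 18 measured markers were called absent on all arrays and so were no candidates. Il1r2, Trem1 and Trem3 varied under 2-fold and were no candidates either. The lack of neutrophil markers among the 6 therefore says little about cell type.

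S100a14, an S100 protein of the epidermis and other epithelia, was lowest after PP2. Its signal was 2596 in virgin, 2343 in dorsal, 3411 in abdominal and 1312 in PP2 skin, all called present. The abdominal array was the highest, 1.31-fold above virgin and 1.46-fold above dorsal skin. PP2 skin lay 2.60-fold below abdominal, 1.98-fold below virgin and 1.79-fold below dorsal skin.

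Most keratinocyte markers were lower after PP2 than in abdominal skin, while against virgin skin their directions were mixed. Their summed signal was 116294, 206443, 148886 and 94001 on the virgin, dorsal, abdominal and PP2 arrays. Their median log2 ratio of abdominal over PP2 was 0.63 over 17 genes, against 0.00 for all genes. Only 3 were over 2-fold higher on the abdominal array, beside 12.6% of all genes by any probe set. With 17 genes, 3 is near what this share gives. The 3 were Krt1, Sfn and Krt5, at 2.26-fold, 2.20-fold and 2.09-fold. Of the 17, 14 were lower after PP2 than on the abdominal array. Against virgin skin, 9 of 17 were lower after PP2 and 8 higher, Trp63, Epcam and Krtdap among the latter, with a median log2 ratio of PP2 over virgin of -0.19. Dorsal skin differed: its keratinocyte sum was the highest of the 4 while its S100a14 signal was below those of the virgin and abdominal arrays. The markers with the largest ratios there were of late cornification, with Lor, the main protein of the cornified envelope, 34.8-fold and Lce1m 28.1-fold above the abdominal array. The PP2 array also had the highest Gapdh 3′ to 5′ ratio, 5.84, while its Actb ratio of 2.70 lay near that of virgin skin, 2.64. The part of epidermal cells or RNA quality in the low S100a14 signal of the PP2 array was not tested. The nearest genes to S100a14 were Ppil2, Mtmr2 and Gsc2, at 0.023, 0.068 and 0.070 on the root mean square scale.

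S100a4, also called fibroblast-specific protein and known as a partner of non-muscle myosin, was highest in virgin skin. Its signal was 18650.3, 13769, 11908 and 14433 on the virgin, dorsal, abdominal and PP2 arrays. The abdominal array was the lowest, with virgin skin 1.57-fold, dorsal skin 1.16-fold and PP2 skin 1.21-fold higher. Fibroblast markers and macrophage markers, both of cell types known to make S100a4, also had their highest sums on the virgin array. The fibroblast sum was 171957, 130666, 149899 and 139188, and the macrophage and dendritic cell sum was 9024, 4518, 5527 and 5488. In both sums the order of the other 3 arrays differed from that of S100a4. A sum is weighted to the brightest probe sets, and single fibroblast markers differed. Pi16 and Lum were highest on the virgin, Col1a1 and Fbln2 on the abdominal, and Fap and Pdgfra on the PP2 array. The median log2 ratio of abdominal over virgin was -0.42 over 15 fibroblast markers and -0.90 over 14 macrophage and dendritic cell markers. The part of these cells in the S100a4 signal was not tested. Myh9, the myosin it binds, was lowest after PP2, at 12757, 14118, 13199 and 9456 for its representative probe set.

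S100a6, or calcyclin, a protein of dividing fibroblasts and epithelia, was higher in virgin and dorsal skin than in both other samples. Its signal was 23393, 21370.4, 15949.8 and 16289, present on all 4 arrays. Virgin skin was 1.47-fold and dorsal skin 1.34-fold above abdominal skin, while PP2 skin lay within 1.02-fold of it. Its binding partner Cacybp had signals of 2463, 1433, 2272 and 2684, lowest in dorsal skin.

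S100a10, the partner of annexin A2 at the cell membrane, gave different answers from its 3 probe sets. Probe set 1456642_x_at had signals of 19314, 19904.5, 15197 and 12642, with PP2 the lowest. Probe set 1416762_at had signals of 10789, 10009, 10055 and 12336, with PP2 the highest. Probe set 1439348_at had signals of 2497, 2054, 1162 and 2773, with the abdominal array the lowest. All 12 signals were called present. By 1439348_at the virgin, dorsal and PP2 arrays were 2.15-fold, 1.77-fold and 2.39-fold above the abdominal array. By 1416762_at the same folds of virgin and PP2 over abdominal were 1.07 and 1.23, and the abdominal and dorsal signals differed by 0.01 on the log2 scale. By 1456642_x_at virgin and dorsal skin were 1.27-fold and 1.31-fold above abdominal skin, which was itself above PP2 skin, by 0.27 on the log2 scale. The 3 probe sets agreed in direction only for virgin over abdominal skin, and not there after quantile normalization, where 1416762_at turned to a log2 ratio of 0.01, abdominal over virgin. Which of them reports the S100a10 transcript best was not tested. The x in the name of 1456642_x_at marks probes that can bind other transcripts. Anxa2 itself was 14774, 18206, 14084 and 13488, highest in dorsal skin.

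**Figure D3:**
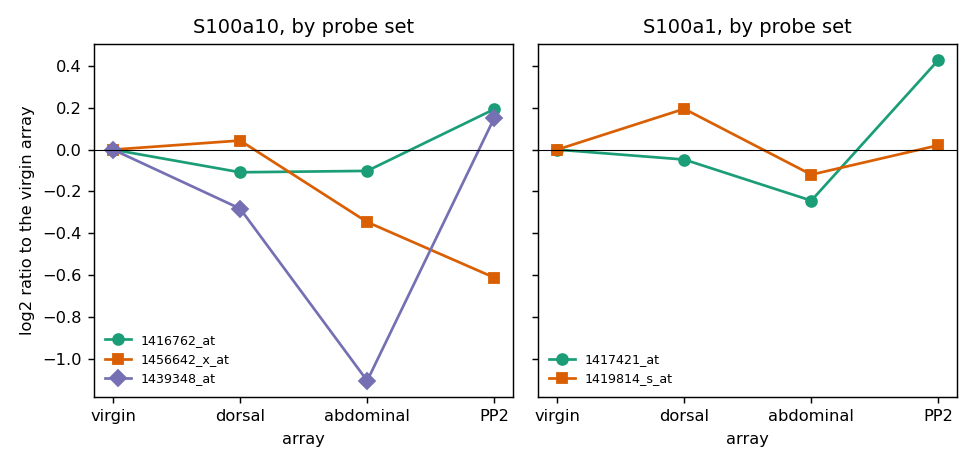
Log2 ratio of each array to the virgin array for the 3 probe sets of S100a10 and both probe sets of S100a1, 1 point per array, all called present. The abdominal signal of 1439348_at lies 2.15-fold under the virgin signal and that of 1416762_at 1.07-fold under it.

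S100a13, which takes part in the release of growth factors that lack a signal peptide, and S100a1, a regulator of calcium handling in muscle, varied least by their representative probe sets. S100a13 had signals of 3802, 3303, 3266 and 4076, with virgin 1.16-fold, dorsal 1.01-fold and PP2 1.25-fold above the abdominal array. S100a1 had signals of 1215, 1391, 1118 and 1233 by 1419814_s_at and 423, 409.7, 358 and 569.6 by 1417421_at, with the abdominal array the lowest by both. By the latter its brightest and dimmest arrays differed by 1.59-fold, more than those of S100a4 and S100a6. PP2 was 1.10-fold above the abdominal array by the former probe set. As for S100a8, the _s_at suffix of that probe set is given to probes that can match more than 1 transcript. Of 14 skeletal muscle markers, 7 were called absent on all 4 arrays, Ckm, Mb and Atp2a1 among them, and the summed signal was 926, 736, 737 and 553, highest in virgin skin.

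Read over the family, the calls past 2-fold were few in each comparison. A gene counts as higher or lower here if any of its probe sets passed 2-fold with a present call on the brighter side. For pregnancy, abdominal over virgin, 1 of 8 tested members was higher, S100a3, beside 5.69% of all genes tested. Likewise 1 of 8 was lower, S100a10 by 1439348_at alone, beside 6.34% of all genes. With so few members, 1 call is near what these shares give for 8 genes. The median log2 ratio of the members was -0.28, against 0.02 for all genes.

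For body site, abdominal over dorsal, 1 of 9 members was higher, S100a3, beside 8.54% of all genes. S100a9 was the 1 member lower, beside 8.81% of all genes. These shares are near 1 in 9. The member median was -0.21 and that of all genes 0.04.

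For PP2, abdominal over PP2, 2 of 8 members were higher, S100a3 and S100a14, beside 12.6% of all genes. S100a10 was the 1 lower, by 1439348_at alone, beside 5.12% of all genes. The split of all genes, 1661 higher and 674 lower, shifted to 1130 and 911 after quantile normalization. The member median was 0.12 against 0.00. The same members were called after both alternative scalings, and S100a10 was called against neither virgin nor PP2 skin by its representative probe set. Both counts are within 1 gene of what these shares give for 8 genes.

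**Figure D4:**
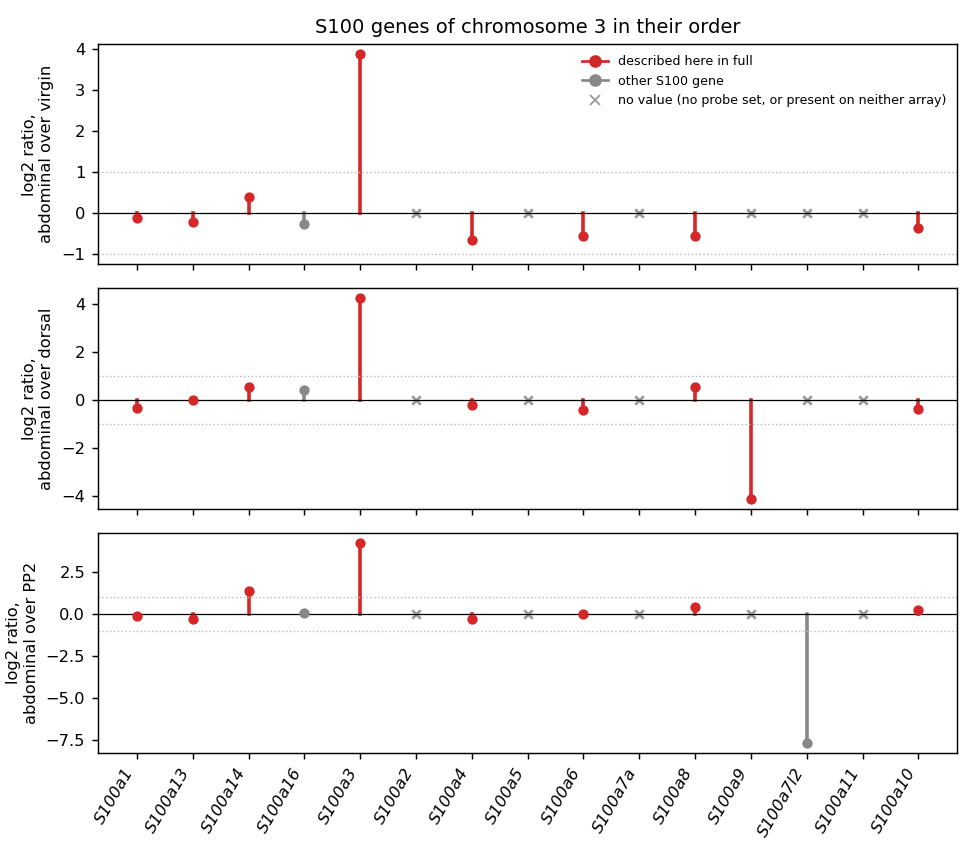
Log2 ratio of MAS5 signals, abdominal over virgin, dorsal and PP2 array in turn, of the representative probe set of each S100 gene of chromosome 3, evenly spaced in chromosome order, with dotted lines at 2-fold. Signals are plotted as measured, so that S100a3, S100a9 and S100a7l2 exceed or equal the lower bounds in the text; S100a3 stands above 3.8 in each comparison while S100a16 and S100a4 near it lie within 2-fold.

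By median spread, levels of the members called present on all 4 arrays were about as steady as those of other genes. Among 11086 genes called present on all 4 arrays, the median ratio of the brightest to the dimmest array was 1.51, and 19.4% passed 2-fold. The 7 members called present on all 4 had a median of 1.57, and 28.6% passed 2-fold. In order they were S100a1 at 1.24, S100a13 at 1.25, S100a6 at 1.47, S100a4 at 1.57, S100a10 at 1.57, S100a8 at 2.12 and S100a14 at 2.60. These are values of representative probe sets. By 1439348_at the ratio of S100a10 was 2.39, and by 1417421_at that of S100a1 was 1.59. S100a1 varied more than 15.4% of those genes, S100a8 more than 83.7% and S100a14 more than 91.6%.

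**Figure D5:**
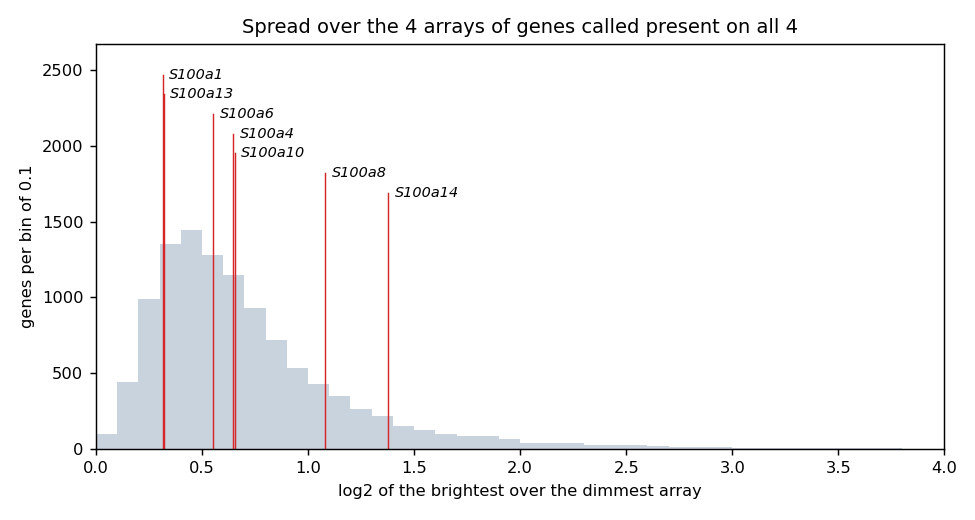
Number of genes per bin of 0.1 against the log2 ratio of the brightest to the dimmest of the 4 arrays, for genes called present on all 4, with red lines at the 7 S100 members; line height carries no value. S100a1 and S100a13 lie at the narrow end, 1.24-fold and 1.25-fold, and S100a14 at 2.60-fold lies in the upper tail.

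Of the other S100 genes, 5 of 8 listed were measured. S100b, a marker of Schwann cells that adipocytes and melanocytes also make, was 1603, 4306, 1527 and 3616 by 1434342_at and 824, 2162, 840.5 and 1573 by 1419383_at. It was 2.82-fold and 2.57-fold higher in dorsal than in abdominal skin and 2.37-fold and 1.87-fold higher after PP2. The Schwann cell genes Cdh19 and Sox10 were higher on the same arrays, 4.10-fold and 3.66-fold in dorsal skin and 3.57-fold and 1.99-fold after PP2. Of 6 Schwann cell markers called present, 4 were higher than in abdominal skin in each of these samples, while Mbp and Pmp22, proteins of myelin, were lower in both, Mbp 1.45-fold after PP2. The median log2 ratio over abdominal skin was 1.04 in dorsal and 0.28 in PP2 skin, and the part of Schwann cells in the S100b signal was not tested. S100a7l2 had signals of 3.48, 28.2, 2.87 and 582 and was called present after PP2 alone, at least 88.5-fold above abdominal skin. S100a16, the neighbour of S100a3 and S100a14, lay within 1.33-fold of its abdominal level on every array by its representative probe set. S100a5 was called absent on all 4 arrays, and S100g, a calcium carrier of gut and uterus, was called present on none.

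Larger relatives that join an S100 domain to long repeats had no common pattern. Besides Tchh, Tchhl1 was called present on the abdominal array alone, at 18.1, 20.1, 74.7 and 11.4. Hrnr, of the cornified layer, was 47.8, 762, 24.5 and 74.1, and Flg, the precursor of filaggrin, 9.97, 269, 18.6 and 22.2. Both were highest in dorsal skin, 31.1-fold and 14.5-fold above the abdominal array. Rptn was highest in virgin skin by its representative probe set, at 82.4, 56.7, 29.6 and 52.2 and called present there and after PP2, while 1 other of its probe sets was highest in dorsal and another in PP2 skin. The transglutaminases Tgm3 and Tgm1, which cross-link the cornified layer, were 4.47-fold and 3.01-fold higher in dorsal skin.

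Among receptors of S100 proteins, Ager, the receptor RAGE, and Cd33 were called absent on all 4 arrays. Tlr4 and its partner Ly96, Bsg, Emb, Alcam and Cd36 were called present on all 4. Of these 6, only Cd36, a fatty acid receptor that adipocytes and endothelium also carry, passed 2-fold in any comparison by its representative probe set, 2.18-fold higher in abdominal than in virgin skin. The median log2 ratio of the 6 was 0.14, 0.10 and -0.01 over virgin, dorsal and PP2 skin. Of 13 measured partners and modifying enzymes, 1 was higher and 1 lower in abdominal than in virgin skin by over 2-fold. The counts were 1 and 2 against dorsal skin, and 1 and 0 against PP2 skin, with Padi3 the one higher in each. The shares of all genes, by any probe set, were 5.69% and 6.34%, 8.54% and 8.81%, and 12.6% and 5.12%. Each count is within 1 gene of what these shares give for 13 genes. Anxa6 was the one lower than in virgin skin, by 2.22-fold by its representative probe set, while its other probe sets were lower by less than 2-fold.

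Among pairs of arrays that leave out the abdominal array, 0 of 7 tested S100 genes passed 2-fold between PP2 and virgin skin, beside 4.99% of all genes higher and 12% lower after PP2. S100a14 came closest, 1.98-fold lower after PP2, followed by S100a8 at 1.91-fold lower. Between dorsal and virgin skin, 1 of 8 was higher, S100a9 by at least 2.07-fold, beside 7.43% of all genes, and 1 was lower, S100a8 by 2.12-fold, beside 6.71%. Between PP2 and dorsal skin, 0 of 8 were higher, beside 8.16% of all genes, and S100a9 was lower, by at least 3.99-fold, beside 15.6%. Each of these counts is within 2 genes of what the shares give. S100a7l2 was at least 54.5-fold higher after PP2 than in virgin skin and at least 20.7-fold higher than in dorsal skin.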

How the data were processed

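RNA of dermal cells was hybridised to Affymetrix mouse arrays, 1 per condition. The authors deposited, per array, a MAS5 signal, which is a linear intensity, and a detection call for each probe set, made with Affymetrix Expression Console version 1 per the submitters' processing notes. Trimmed of 2% at either end, the signals averaged about 500.0 per array. The deposited table of all arrays differed from the single tables for 0 probe sets, and 0 columns lacked a sample. No source used here names a genome build.

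Signals were used as deposited, with Python 3.11.15, pandas 2.3.3, NumPy 2.4.6 and Matplotlib 3.10.9. Genes were named by the platform's annotation, from probe sets that list 1 symbol. Entrez identifiers of 9 of 9 members matched the RefSeq gene table. A gene's representative probe set had the highest mean log2 signal. For a probe set not called present on the dimmer array, the lower value was the larger of its own signal and that array's lowest present signal, and the fold is given as a lower bound. Medians and list counts use representative probe sets called present on at least 1 of the 2 arrays.

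The genes named are all 10 members, measured genes from the lists of other S100 genes, relatives, receptors and partners (the partners in part), the 3 genes of each marker list with the largest ratio in a comparison, markers called absent on all arrays, and the 3 genes most like a member. Krt14, Lef1, Trps1, Trp63, Epcam, Krtdap, Pmp22, Clec4d, Trem1 and the 2 neutrophil markers called present on all arrays were named after their values were seen. Likeness is the root mean square difference of log2 signals raised to each array's dimmest present signal and centred per gene, over genes that vary at least 2-fold. Members and lists were chosen with earlier results of these data known, and TATAA and its window of positions after the sequences were seen. The counting steps were tested on simulated data. Alternatives were 2 scalings, thresholds of 1.5-fold and 3-fold, other filters on detection, an offset of 50 on the signals, other rules for several probe sets, and the table of all arrays. With 1 array per group no p-value was computed, the number of arrays limits the precision, and a value without a test was called moved when it changed by over 1.5 times.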

Additional observations from a re-analysis of the deposited data

How the results depend on the processing

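Of 60 recomputed counts of members past 2-fold, 44 stayed within 1.5 times of the value reported. The table of all arrays holds the same signals as the single tables, so counts and ratios recomputed from it could not move. With a present call required on both arrays, higher members numbered 0 against virgin, 0 against dorsal and 1 (S100a14) against PP2 skin, and lower members 0 against dorsal skin, since S100a3 and S100a9 were each called present on 1 array. At 1.5-fold, lower members numbered 2 against virgin (S100a4, S100a10), 2 against dorsal (S100a9, S100a10) and 2 against PP2 skin (S100a1, S100a10). At 3-fold, lower members numbered 0 against virgin and 0 against PP2 skin, and higher members 1 (S100a3) against PP2 skin. Without a detection filter, lower members numbered 2 against virgin and 2 against PP2 skin, S100a9 and S100a10 in both. With the representative probe set alone, or with every present probe set required to pass, S100a10 was lost and lower members numbered 0 against virgin and 0 against PP2 skin.

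Of 144 recomputed log2 ratios of single probe sets, including those from the table of all arrays, 138 stayed within 1.5 times. Among them 2 changed sign, both close to 0: S100a10 by 1416762_at, abdominal over virgin, from -0.10 to 0.01 after quantile normalization, and S100a13, abdominal over dorsal, from -0.02 to 0.06 after scaling to 1 median. The other 6 were S100a3 and S100a9 with 50 added to each signal, which gave S100a3 log2 ratios of 3.20, 3.41 and 3.40 and S100a9 ratios of -0.59, -1.09 and -0.30 against virgin, dorsal and PP2 skin. Counts over all genes, 674 to 1661 per comparison and direction, became 1776 to 3382 at 1.5-fold, 238 to 636 at 3-fold, 2333 to 4228 without a filter, 433 to 1114 with a present call on both arrays, 346 to 826 with the offset, 434 to 673 by representative probe sets and 388 to 597 by every present probe set. Scaling each array to 1 median of its present signals moved the median log2 ratio of all genes to 0.11 against dorsal and -0.11 against PP2 skin.

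No paired analysis was possible because each condition had 1 array. S100a8, S100a9 and the absent neutrophil markers lay near the floor of detection, where 1 array cannot separate a low level from background. For every member, the difference between 2 arrays cannot be told apart from that between 2 samples of 1 condition.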
